A study of Mus musculus with 6 samples.

Results

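RUNX1 peaks were described at 5 genes of the forkhead family, Foxo1, Foxo3, Foxp1, Foxp2 and Foxp4, in mouse granulosa cells before and after an ovulatory stimulus. A peak was taken for a gene when its summit lay inside the RefSeq gene body on GRCm38 or within 50 kb of either end. The 5 windows cover 1872 kb and held 91 of the 51515 peaks of the series. The rule uses names and positions and no peak values, and it takes 5 of 21887 protein-coding genes on the main chromosomes.

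Chromatin bound by RUNX1 was isolated with an antibody and sequenced (ChIP-seq) from CBA x C57BL/6 F1 mice aged 21 days. The mice were given 5 IU of eCG, a gonadotropin that drives follicle growth, and 46 h later 5 IU of hCG, which acts on the luteinising hormone receptor and sets off ovulation. Cells of the 0 h group, labelled pre-ovulatory, and of the 6 h group, labelled peri-ovulatory, gave 2 ChIP libraries each, and each time point had 1 pooled input. The labels give no genotype other than the strain. Their account of the treatment does not differ between time points and mentions only cells taken 6 h after hCG, and the 0 h group was therefore assigned from titles and the time-point label. Whether replicates came from separate mice or pools is not given in the sources used here, so the spread between them may be technical. Peak lists hold no RNA levels, and the identity of the cells was not checked with markers. The libraries come from bulk cells, in which a site bound in fewer cells and a site bound more weakly in each cell cannot be told apart.

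FOXO factors activate genes of cell cycle arrest, stress resistance and cell death while they are in the nucleus. Phosphorylation by AKT, downstream of insulin, growth factors and gonadotropins, moves them out of it. In the ovary FOXO1 is known from granulosa cells of growing follicles and FOXO3 from the oocyte, where it holds back the activation of primordial follicles. FOXP factors are mostly repressors that pair with one another through a leucine zipper. RUNX1 binds DNA with its partner CBFB at sequences of the type TGTGGT or TGCGGT.

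The lists differ much in length, from 948 and 3135 peaks at 0 h to 18761 and 28671 peaks at 6 h (replicates 1 and 2). Reads piled up at each summit, and the background expected there, were recovered from the deposited fold enrichment and p-value. The lowest background of a list lay between 2.13 and 2.77 reads, and the weakest summit in a list held between 17 and 20 reads. A site missing from a list may therefore still have held some enrichment below these levels. The total number of reads per library is unknown.

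RUNX1 peaks at the forkhead genes were few before hCG and numerous after it. The 5 windows together held 1 and 5 peaks in the 0 h replicates and 33 and 52 in the 6 h replicates. The time points did not overlap, and the mean went from 3 ± 2.83 peaks to 42.5 ± 13.4 (SD, n = 2 libraries each). On the scale of log2(peaks + 1) the difference was 3.62 (exact permutation test, two-sided, p = 0.333, the smallest p that 2 libraries against 2 can give).

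Set against the length of the lists, the time points were much closer. Peaks in the 5 windows made up 0.105% (95% CI 0.00267 to 0.586) and 0.159% (95% CI 0.0518 to 0.372) of the 0 h lists. At 6 h they made up 0.176% (95% CI 0.121 to 0.247) and 0.181% (95% CI 0.135 to 0.238), by exact Clopper-Pearson intervals that cover counting error only. The difference in the share was 0.0461 percentage points (exact permutation test, two-sided, p = 0.333). Leaving out 0 h replicate 1 gave 0.0191 and leaving out 0 h replicate 2 gave 0.0731, with gene bodies alone it was 0.0208, and it was 0.0871 with peaks of a −log10 q of at least 20, where the time points overlapped. When every list was shortened to its 948 peaks with the lowest p-values, each of the 4 libraries kept exactly 1 peak in the windows, and both differences were 0. With 1 peak per library, a difference in share of the size seen in the full lists was not detectable at this list length.

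**Figure D1:**
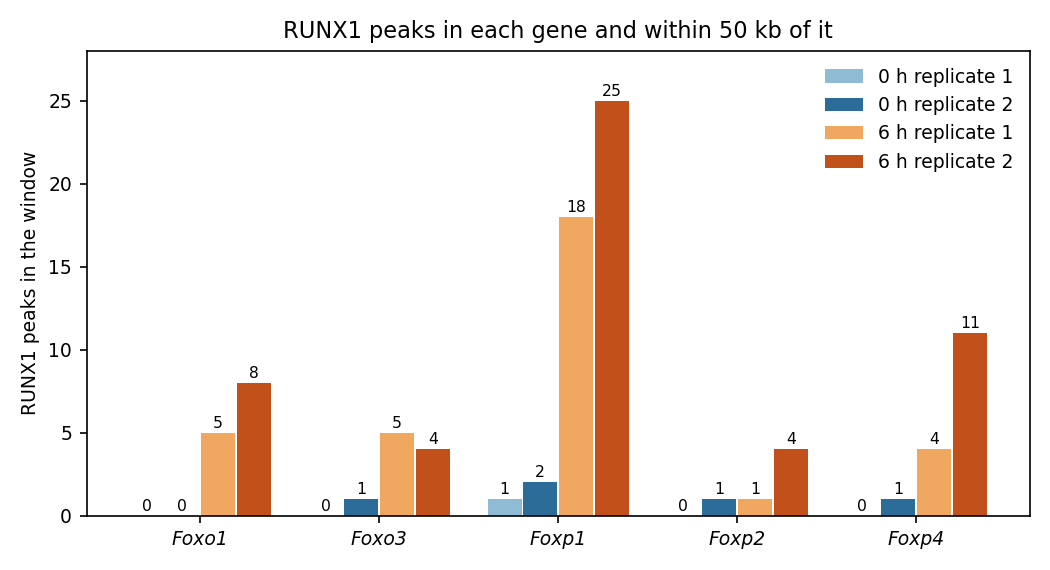
Number of RUNX1 peaks with a summit in each gene or within 50 kb of it (vertical axis), with 1 bar per library and the count above each bar. Foxp1 has the most peaks at 6 h, with 18 and 25, and Foxo1 has none in either 0 h list.

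Gene by gene, the 6 h lists held more peaks than either 0 h list at 4 of the 5 genes, and Foxp2 was the exception. This depended on the settings: Foxo3 overlapped between time points with gene bodies alone and with 10 kb on either side, Foxp2 separated with a −log10 q of at least 20, without 6 h replicate 1 and without 0 h replicate 2, and no gene separated with lists of equal length. The background is close to this, since 64.7% of all protein-coding genes, and 72.0% of those with a window at least as long as the shortest of the 5 (157.5 kb), showed the same separation. All 5 genes had at least 1 replicated 6 h region, in which overlapping peaks (by at least 1 bp) from each of the 6 h replicates were joined. This held for 68.9% of all protein-coding genes and for 75.8% of those with windows of that length. A replicated 0 h region was found at 1 gene, Foxp1, against 8.76% of all protein-coding genes and 9.06% of those with long windows. Some 0 h peak was called at 4 of the 5, Foxo1 being the exception, against 28.7% and 28.3%. With 5 genes, nothing particular to the forkhead genes is read from these counts.

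Per length, Foxp2 lay below the other 4 genes in both 6 h libraries, and those 4 were close to one another in replicate 1 but not in replicate 2. The level at 6 h, in peaks per 100 kb of window and given as mean ± SD over the 2 libraries, was 4.76 ± 3.14 for Foxp4, 3.58 ± 1.17 for Foxo1, 3.08 ± 0.710 for Foxp1, 2.31 ± 0.363 for Foxo3 and 0.390 ± 0.331 for Foxp2. In 6 h replicate 1 the first 4 lay between 2.54 and 2.75 peaks per 100 kb. The order among them came from replicate 2, where Foxp4 had 6.98, Foxo1 4.40, Foxp1 3.58 and Foxo3 2.05. Foxp4, with 2.54 and 6.98, overlapped Foxo1, Foxp1 and Foxo3 in its values, and Foxo1 overlapped Foxp1. Foxo3, with 2.57 and 2.05, lay just under Foxp1, with 2.58 and 3.58. Foxp2 had 0.156 and 0.624 and overlapped none of the others. By 6 h regions found in both replicates, the order per 100 kb was Foxo1 with 2.75, Foxp1 2.01, Foxp4 1.90, Foxo3 1.54 and Foxp2 0.156.

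**Figure D2:**
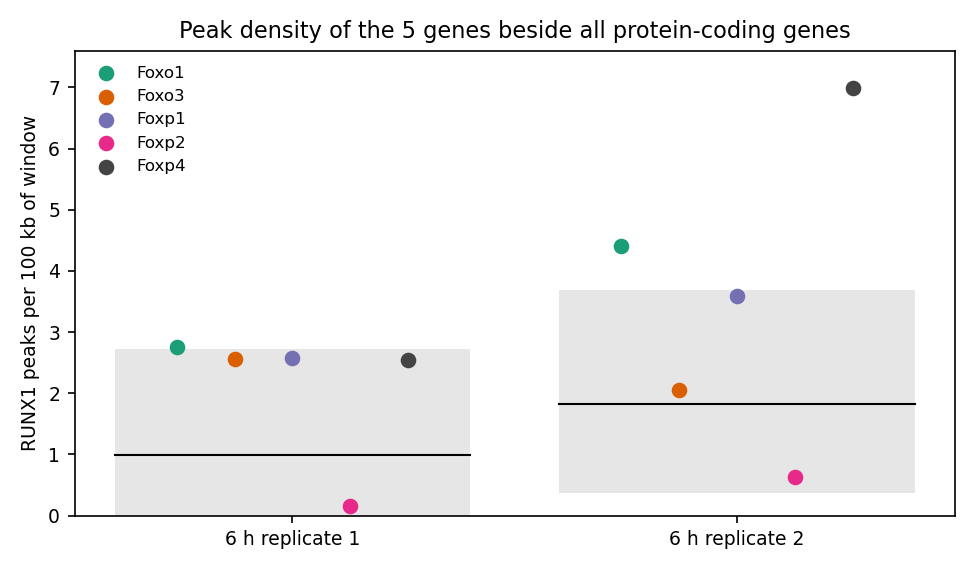
RUNX1 peaks per 100 kb of window in the 6 h replicates, with 1 point per gene. The grey box spans the middle of the distribution over 21887 protein-coding genes, from the lower to the upper quartile, and the line is the median (0.994 and 1.82). Foxp2 lies below the median in both libraries and the other 4 genes lie above it.

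The 26 replicated 6 h regions of the 5 genes were divided as 14 at Foxp1, 5 at Foxo1, 3 at Foxo3, 3 at Foxp4 and 1 at Foxp2. In 18 the summit lay inside the gene and in 8 outside it. Summits of the replicates were a median of 34.5 bp apart. Of the 26 regions, 21 had no 0 h peak, or 80.8% (95% CI 60.6 to 93.4, Clopper-Pearson), against 83.5% of all 17190 replicated 6 h regions. Without 0 h replicate 2 the share was 96.2%, since 4 of the other 5 regions were matched by that library alone. A mean percentile of fold over both lists above 90 was reached by 3 regions, or 11.5%, against 12.0% of all.

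Foxo1, the FOXO factor of growing follicles, lies on chromosome 3 at 52268337 to 52350109. It had no peak in either 0 h list, and 5 and 8 peaks in the 6 h replicates. All 5 replicated regions were found at 6 h without a 0 h peak, and 4 of them lay at the start of the gene or in its first part. The region chr3:52267645-52269090 covered the start. Its highest summit held 67 reads over a background of 4.02 in replicate 1 and 60 reads over 2.73 in replicate 2, with fold enrichments of 13.6 and 16.3. Ranked by fold within their lists, these peaks stood at the 80.5 and 76.5 percentiles. The summits lay at −10 and 66 bases from the RefSeq start, so the peak sat on the start site itself in both libraries.

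The 250 bases before the start of Foxo1 are shown because they hold the summit of replicate 1, which is the centre of the 19 bases in capitals. They lie at chr3:52268087-52268336 on the plus strand and are from RefSeq on GRCm38.p6, written 5′ to 3′.
Foxo1: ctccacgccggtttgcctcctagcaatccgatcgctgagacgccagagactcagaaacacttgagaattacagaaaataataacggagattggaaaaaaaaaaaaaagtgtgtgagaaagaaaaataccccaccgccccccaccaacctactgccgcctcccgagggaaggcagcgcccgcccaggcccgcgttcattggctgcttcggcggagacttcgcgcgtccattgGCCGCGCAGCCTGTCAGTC
Neither TGTGGT nor TGCGGT was found on either strand of the 300 bases from 250 before the start to 50 after it. These letters are not in this window, and nothing follows from that about RUNX1.

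The Foxo1 region with the highest mean percentile, 84.1, lay further inside the gene, at chr3:52278255-52278886, with its better ranked summit 10180 bp after the start. In replicates 1 and 2 it held 64 and 98 reads, a fold of 13.0 and 24.1, at percentiles 78.4 and 89.8. In replicate 1 alone the region over the start ranked above it. A region before the gene, at chr3:52246367-52246705 inside the long non-coding RNA gene Gm30125, had its summit at the same base in both replicates, 21786 bp before the start. It held 34 and 63 reads. The remaining 2 regions, 1503 to 2417 bp after the start, ranked low, with a mean percentile of 37.7 and 24.3.

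Foxo3 lies on chromosome 10 at 42181845 to 42276695, on the minus strand. Its peaks numbered 0 and 1 at 0 h and 5 and 4 at 6 h. No replicated region had its best ranked summit inside the gene, and in all 3 that summit lay before the start. The first, at chr10:42274649-42278711, was the widest of the 26 with 4063 bp and covered the start. It was called as 3 peaks in replicate 1 and as 1 in replicate 2. Its highest summits held 96 and 95 reads over a background of 6.75 and 5.34, and lay at −1447 and −1499 bp from the start. The 0 h peak of replicate 2 lay at the same place, 53 bp from the nearer 6 h summit, with 24 reads over 4.15.

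The strongest Foxo3 region, at chr10:42293555-42294764, had its better ranked summit 17331 bp before the start, with the replicates 7 bp apart. It held 137 and 176 reads, at percentiles 85.4 and 90.1, and had no 0 h peak. The third, chr10:42308306-42308721, ranked at percentiles 11.2 and 5.25. Its better ranked summit lay 31738 bp from Foxo3 and 4148 bp from the neighbour Afg1l. That of the strongest region lay 18555 bp from Afg1l. When a peak outside a gene was counted only where no other gene body was nearer, Foxo3 kept 2 of its 3 regions.

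**Figure D3:**
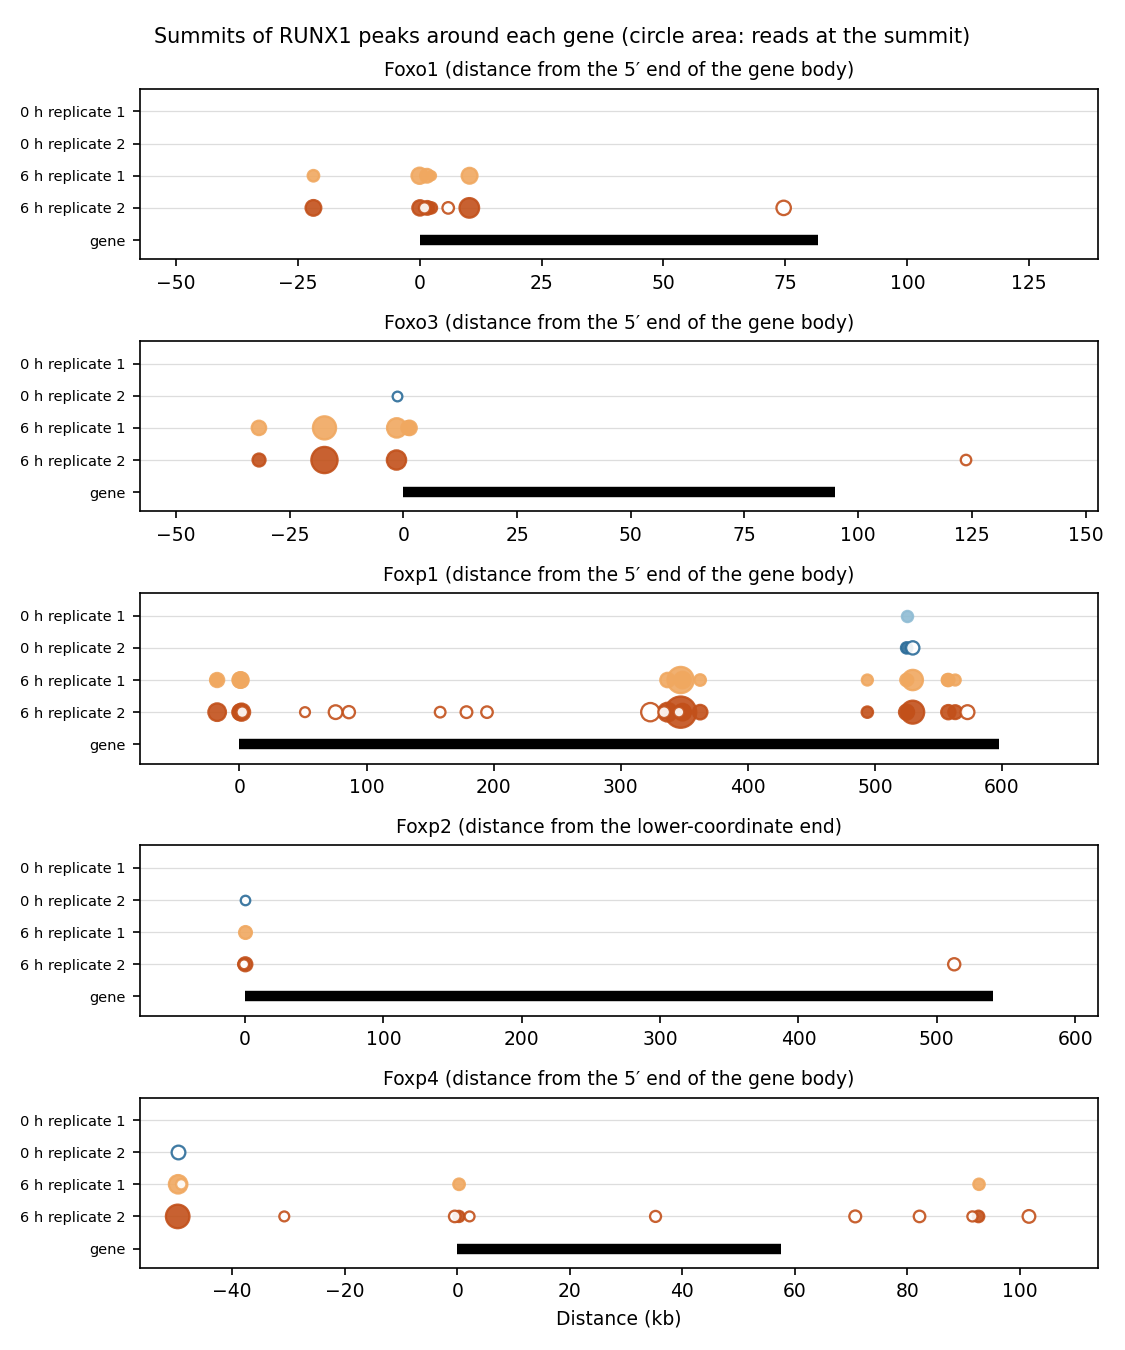
Position of every RUNX1 summit in the window of each gene, in kb from the 5′ end of the gene body (for Foxp2 from the end with the lower coordinate, since no strand was given). Rows are libraries, the area of a circle is the number of reads at the summit, filled circles belong to replicated regions, open circles do not, and the black bar is the gene. At Foxo1 most replicated regions lie at the start or in the first part of the gene, at Foxo3 they lie at the start and before it, and at Foxp1 they form separate groups along the gene.

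Foxp1, a repressor known from B cell, heart and lung development, is the longest of the 5 genes and lies on chromosome 6 at 98925342 to 99522746, on the minus strand. It held 1 and 2 peaks at 0 h and 18 and 25 at 6 h, so the time points did not overlap. Its 14 replicated regions fell into 5 groups when regions at most 20 kb apart were joined. Inside the gene lay groups of 2, 3 and 5 regions, the last spread over 26.3 kb, and 1 region on its own. Another group of 3 lay at the start of the gene and before it. The widest stretch without a replicated region ran for 334 kb between the group of 5 and the start. In that stretch replicate 2 had 9 peaks, of 25 to 86 reads, and the other 3 libraries had none.

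The strongest region of all 5 genes was in the group of 5, at chr6:99175064-99176138. It held 176 reads over 5.63 in replicate 1 and 250 reads over 4.35 in replicate 2, a fold of 26.7 and 46.9, at percentiles 97.1 and 98.6. Neither 0 h library had a peak there. It was the peak that both 6 h lists kept when shortened to 948 peaks.

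All 0 h peaks of Foxp1 lay in the group of 3 at chr6:98992761-98998119. The sole replicated 0 h region of the 5 genes, at chr6:98997624-98997879, held 32 and 33 reads over 2.77 and 2.65, at percentiles 64.8 and 78.1 of the 0 h lists. The 6 h region that overlapped it, chr6:98997547-98998119, held 39 and 58 reads over 4.34 and 3.35, at percentiles 36.6 and 66.5. Its reads were higher at 6 h in both libraries, but its background was higher as well, and the summits lay at least 85 bp apart. The folds overlapped between time points, with 8.75 and 9.31 at 0 h and 7.49 and 13.6 at 6 h. With a −log10 q of at least 20 this 0 h region was no longer replicated. In the same group, chr6:98992761-98993521 held 106 and 135 reads at 6 h, at percentiles 94.1 and 95.4. At 0 h it was called in replicate 2 with 45 reads over 6.91, at the same base as in 6 h replicate 1, and not in replicate 1.

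RefSeq gives Foxp1 promoters at 3 starts, and peaks of both 6 h replicates overlapped the 300-base promoter of 2 of them. At the outermost, chr6:99520846-99521238 held 38 and 75 reads over 2.76 and 2.13, at percentiles 65.4 and 89.9, with summits at −9 and −65 bases from the start. A second region, chr6:99521315-99523577, reached over the end of the annotated gene with 63 reads at its highest summit in each replicate. These summits lay 518 bp apart, at percentiles 76.0 and 34.1 in replicates 1 and 2. At the innermost start the region chr6:99028398-99029112 overlapped the promoter at its upstream edge and did not reach the start. It held 31 and 33 reads, with summits at −383 and −399 bases from it. No list had a peak over the promoter at the start between these.

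The 250 bases before the outermost start of Foxp1 are shown because the summits of both 6 h replicates fall in them. They lie at chr6:99520994-99521243 and are written 5′ to 3′ on the minus strand, from RefSeq on GRCm38.p6, with the match to a RUNX sequence in capitals.
Foxp1: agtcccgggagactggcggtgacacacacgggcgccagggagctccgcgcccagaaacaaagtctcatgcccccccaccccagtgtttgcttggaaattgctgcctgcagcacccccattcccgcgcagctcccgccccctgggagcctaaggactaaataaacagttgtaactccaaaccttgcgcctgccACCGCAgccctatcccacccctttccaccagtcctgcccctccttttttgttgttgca
The match is TGCGGT read on the other strand (ACCGCA), at −58 to −53 bases from the start. The summit of replicate 2 was 7 bases from it and that of replicate 1 was 44 bases from it. Among 21263 promoters of this length, 7.44% hold TGCGGT and 15.0% hold TGTGGT on either strand. Under replicated 6 h regions 12.5% hold TGCGGT, against 4.59% of the rest. For TGTGGT the order is the other way, with 11.5% against 16.9%. No other promoter of the genes held either sequence, and none held the forkhead sequence TGTTTAC, the AP-1 sequence TGACTCA or the NR5A sequence AAGGTCA. A match is a description and not a shown binding site.

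Foxp2, best known from brain development and speech, lies on chromosome 6 at 14901349 to 15441977. It held 0 and 1 peaks at 0 h and 1 and 4 at 6 h, so the time points overlapped at 1 peak. The single replicated region, chr6:14901326-14901748, covered the end of the gene with the lower coordinate. It held 42 and 50 reads over 2.89 and 2.24, at percentiles 69.4 and 74.7. The 0 h peak of replicate 2 lay in the same place with 23 reads over 2.76, its summit 6 bp from that of 6 h replicate 1. In its gene body of 541 kb no other peak was found in more than 1 library. No promoter of Foxp2 is in the sequence table.

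Foxp4, known from lung and gut development, lies on chromosome 17 at 47867133 to 47924632, on the minus strand. It held 0 and 1 peaks at 0 h and 4 and 11 at 6 h. The strongest region, chr17:47973884-47975554, lay at the far edge of the window inside the long non-coding RNA gene Gm29938, 49673 bp before the start. It held 87 reads over 3.38 and 142 reads over 2.48, at percentiles 93.0 and 97.7. The 0 h peak of replicate 2 had its summit 3 bp from that of 6 h replicate 2, with 48 reads over 2.90, at percentile 92.6 of its list. This region straddled the 50 kb limit. The nearest summits beyond it lay at 50.8 kb in 6 h replicate 1, in the same region, and at 51.6 kb in replicate 2, with a fold of 7.51 and 12.1 against 20.1 and 41.0 inside it.

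At the start of Foxp4 the region chr17:47924042-47924461 had its better ranked summit 323 bp inside the gene, with 34 and 32 reads at percentiles 57.0 and 48.9. Replicate 2 had a further peak over the promoter, with its summit at −450 bp from the start. The remaining replicated region lay inside the neighbour Mdfi and ranked at percentiles 15.3 and 11.2. When a peak outside a gene was counted only where no other gene body was nearer, Foxp4 kept 1 of its 3 regions.

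Of the 4 genes with a promoter entry, 3 had a replicated 6 h region that overlapped a promoter by at least 1 bp, against 37.9% of protein-coding genes with an entry. The exception was Foxp4. No promoter of these genes was under a 0 h peak of either list. Over all genes with an entry, a replicated 0 h region lay over the promoter of 1.43%. That share leaves out 0 h peaks of a single list, so it is not matched to the statement for these genes.

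**Figure D4:**
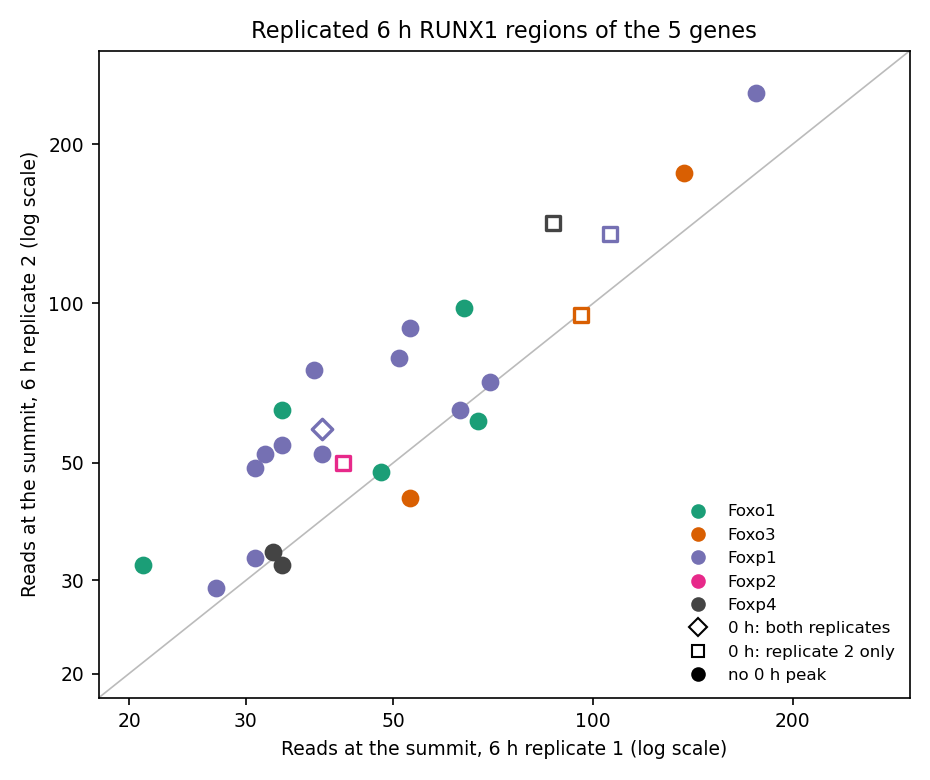
Reads at the highest summit of each of the 26 replicated 6 h regions, replicate 1 (horizontal) against replicate 2 (vertical), both on a log scale, with the line of equal reads. Colours are genes, filled circles had no 0 h peak, squares had one in 0 h replicate 2 and the diamond in both. Reads were higher in replicate 2 in 20 of 26 regions.

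Reads in the replicates of the 26 regions ran from 21 to 176 and from 29 to 250. The 5 regions with a 0 h peak held at least 39 reads in replicate 1, and 3 of them held at least 87. Of the peaks, 1 of the 33 of replicate 1 (at Foxp4) and 26 of the 52 of replicate 2 belonged to no replicated region. Those 26 peaks had 25 to 86 reads and a median percentile of 30.7.

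The pathway around these factors was looked at through lists of genes, by the same window. Every gene of all 5 lists had a replicated 6 h region, against 68.9% of all protein-coding genes. These were 12 other forkhead genes, 15 genes of the PI3K-AKT arm upstream of FOXO, 10 genes of proteins that modify or bind FOXO, 15 FOXO target genes and 8 partners of FOXP. The median gene of the lists had between 1.75 and 1.96 regions per 100 kb, against 0.969 over all protein-coding genes. The lists were described by these counts, and nothing particular to them is read from the counts.

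A replicated 0 h region was present at 3 of 12, 3 of 15, 3 of 10, 3 of 15 and 0 of 8 genes of the lists in that order, against 8.76% of all. Among forkhead genes these were Foxl2, a factor of granulosa cell identity, Foxk2 and another FOXO gene, Foxo4. Foxl2 had 1 and 1 peaks at 0 h and 6 and 6 at 6 h. Foxo4 had 1 and 1 at 0 h and 1 and 2 at 6 h. Its region chrX:101222157-101222891 had a mean percentile of 97.2 at 6 h and lay outside the gene body, which runs from 101254261 to 101260873. Upstream of FOXO they were the receptor gene Igf1r, with 2 and 6 peaks at 0 h and 10 and 14 at 6 h, and Pik3r1 and Pik3r2, which encode regulatory subunits of PI3K. Among modifiers they were Ywhaz (a 14-3-3 protein), Crebbp (an acetyltransferase) and Usp7 (a deubiquitinase). Among targets they were Gadd45a (growth arrest), Fbxo32 (a ubiquitin ligase) and Cdkn1b, the gene of the cell cycle inhibitor p27. Cdkn1b had 2 and 6 peaks at 0 h and 5 and 5 at 6 h, so its time points overlapped. Its strongest 6 h region, chr6:134961344-134962593, had a mean percentile of 99.9 and lay outside the gene body, which runs from 134920401 to 134925525.

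Other genes had the same numbers of peaks as the forkhead genes in all 4 lists. Likeness was the summed absolute difference in log2(peaks + 1) over the 4 libraries, with ties settled by window length. At a difference of 0 there were 67 genes for Foxo1, 37 for Foxo3, 33 for Foxp2 and 2 for Foxp4. The nearest in window length were Tsc22d3 and Ccdc12 for Foxo1, Ptpru and Rnf19a for Foxo3, Ptprn2 and Sugct for Foxp2, and Tubgcp2 and Kif5c for Foxp4. No gene equalled Foxp1, and the closest were Auts2 at 0.217, with 1, 2, 16 and 24 peaks, and Spsb1 at 0.319, with 1, 2, 17 and 21 peaks.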

How the data were processed

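The submitters' processing notes name Bowtie2 2.2.5, MACS2 and the build mm10. The labels describe 1 pooled input per time point, not analysed here by itself. The MACS2 version and settings are not given in the sources used here, and each ChIP library has its own deposited list. The deposited lists give each peak's fold enrichment (a ratio), its −log10 p and −log10 q, a score and its summit. The deposited score was not used. Fold, p and q are the authors' values and rank peaks only within a list. Summit reads and background were solved from fold and p with the Poisson formula of MACS2. This solved 100% of peaks (tolerance 0.005 in −log10 p). Gene bodies are RefSeq on GRCm38.p6, the same build as mm10, without exons, and starts come from the RefSeq promoter table. A region belongs to a gene by the summit of its peak with the highest percentile. Genes, lists and tests were chosen with earlier results of these data known. The main tests were exact permutations over libraries. Alternatives were a q limit, equal lists, other windows, nearest gene only, other overlaps, another pseudocount, each library left out and a replicate block. All 5 genes were named, with the top region of each, all replicated 0 h regions and regions over a gene end. From the lists, genes with a replicated 0 h region were named. Counting, merging and recovery were tested on simulated data. Python 3.11.15, numpy 2.4.6, pandas 2.3.3 and scipy 1.17.1 were used.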

Additional observations from a re-analysis of the deposited data

How the results depend on the processing

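Depth and list length limit these results, since no 0 h list holds a summit under 19 reads, and shorter lists or stricter overlaps hold fewer regions by construction. Of 76 alternatives to the summed results, 62 kept their direction or, for counts and shares, stayed within 1.5 times or within the interval. With equal lists of 948 peaks the log2 difference in peak number and the difference in share were both 0, and 1 replicated 6 h region at 1 gene was left, with 100% of such regions without a 0 h peak and 0 replicated regions at 0 genes at 0 h. On that setting the Foxp4 difference reversed to −0.5. With a −log10 q of at least 20 the replicated 0 h regions were 0, at 0 genes. Requiring an overlap of 50% of both intervals left 95.2% of the 6 h regions without a 0 h peak. Leaving out each library in turn gave 2.82 to 4.41 for the log2 difference, 0.0191 to 0.0731 for the share, 26 to 52 for the 6 h regions (52 without 6 h replicate 1, where each peak of replicate 2 counts as a region) and 80.8% to 96.2% for those without a 0 h peak. Replicated 0 h regions then ran from 1 to 5 and genes with one from 1 to 4, the higher values without 0 h replicate 1. The replicate block gave the same differences, 3.62 and 0.0461 (exact sign-flip permutation p = 0.5, the smallest possible). These could not differ, since the mean of the differences between same-numbered libraries equals the difference of the means. The block results are nevertheless counted among the 62. Deviations of same-numbered libraries correlated at −0.0299 over 21887 genes. The median gene had no peak in either 0 h list, so this value cannot decide whether replicate numbers pair the libraries.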
